A study of Mus musculus with 9 samples.

Results

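The Elavl and Celf genes encode related families of RNA-binding proteins, and their 10 mouse members, Elavl1 to Elavl4 and Celf1 to Celf6, were read out of an expression table of the embryonic hypothalamus by gene symbol. All 10 were among the 38195 symbols of the table, and all 10 were among the 14004 genes tested, for which 3 or more of the 9 libraries had to reach 1 FPKM. FPKM count fragments per kilobase, relative to the size of the library, so levels can be set side by side between genes. The tissue came from embryos of the outbred mouse strain CD-1 at stage E12.5, and the labels name no genetic change and no treatment. Coronal vibratome slices were microdissected into the ventricular zone (VZ), the medial mantle zone (mMZ) and the lateral mantle zone (lMZ), and each zone had 3 libraries. Whether separate embryos stand behind the 3 libraries is not stated, so p-values cover only the spread among these libraries, which may be technical.

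Elavl proteins bind AU-rich and U-rich stretches, mostly in the untranslated ends of mRNAs, where they raise the stability or translation of the message, and the neuronal ones also steer splicing in the nucleus. Elavl1, also called HuR, is made in nearly all cells, while Elavl2, Elavl3 and Elavl4, also called HuB, HuC and HuD, mark cells that have entered the neuronal lineage and are among the early genes of that step. Celf proteins bind GU-rich stretches and act in splicing, mRNA decay and translation. Celf1 is made widely, Celf2 is made widely and in neurons, and Celf3 to Celf6 are made mostly in the nervous system. Dividing progenitors sit in the VZ beside the ventricle, and their neuronal offspring move out into the mantle. For the comparisons, Elavl1 and Celf1 were taken as the general members, Celf2 was kept apart, and the other 7 were taken as the neuronal members.

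The promoters of 6 members are shown because they set the 2 general genes beside the 4 neuronal genes of highest mean level, Elavl3, Elavl4, Celf3 and Celf5. Each is the 250 bases before a transcription start in RefSeq on GRCm38.p6, read 5′ to 3′ on the strand of the gene. Where RefSeq has several starts, the one with the most coding GENCODE transcripts within 100 bases was taken. The windows of Elavl1, which has 1 start in RefSeq and no GENCODE transcript within 100 bases of it, and of Elavl4 lie inside the GENCODE gene spans. Capitals mark the CCAAT box, which reads ATTGG where it lies on the other strand, the TATA-type run TATAAA, the palindromic E-box CAGCTG and, in Elavl4, the further E-box CAGATG. Elavl1 lies at chr8:4325101-4325350 on the minus strand and Celf1 at chr2:90940147-90940396 on the plus strand. Elavl3 lies at chr9:22052024-22052273 and Elavl4 at chr4:110287528-110287777, both on the minus strand, and Celf3 at chr3:94478045-94478294 on the plus strand. Celf5 lies at chr10:81482700-81482949 on the minus strand and has no capitals, as it held none of these motifs.
Elavl1: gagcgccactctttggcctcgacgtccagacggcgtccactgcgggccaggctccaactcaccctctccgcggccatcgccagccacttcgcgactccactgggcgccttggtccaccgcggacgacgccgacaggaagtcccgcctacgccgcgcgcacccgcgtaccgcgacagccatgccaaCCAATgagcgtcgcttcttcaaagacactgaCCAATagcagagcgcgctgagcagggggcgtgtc
Celf1: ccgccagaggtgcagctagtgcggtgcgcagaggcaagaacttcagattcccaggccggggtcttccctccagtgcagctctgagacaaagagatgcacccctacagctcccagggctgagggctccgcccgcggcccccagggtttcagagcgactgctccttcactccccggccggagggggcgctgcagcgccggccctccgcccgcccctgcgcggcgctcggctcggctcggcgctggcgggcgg
Elavl3: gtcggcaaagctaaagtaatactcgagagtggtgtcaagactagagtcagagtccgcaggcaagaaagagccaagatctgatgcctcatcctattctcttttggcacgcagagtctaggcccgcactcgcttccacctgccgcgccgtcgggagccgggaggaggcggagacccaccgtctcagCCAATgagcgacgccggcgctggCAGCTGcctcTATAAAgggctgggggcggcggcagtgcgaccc
Elavl4: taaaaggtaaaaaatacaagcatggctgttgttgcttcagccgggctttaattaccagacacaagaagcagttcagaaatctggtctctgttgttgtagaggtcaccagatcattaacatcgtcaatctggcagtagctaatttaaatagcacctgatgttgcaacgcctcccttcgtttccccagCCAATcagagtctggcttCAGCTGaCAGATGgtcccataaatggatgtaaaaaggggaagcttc
Celf3: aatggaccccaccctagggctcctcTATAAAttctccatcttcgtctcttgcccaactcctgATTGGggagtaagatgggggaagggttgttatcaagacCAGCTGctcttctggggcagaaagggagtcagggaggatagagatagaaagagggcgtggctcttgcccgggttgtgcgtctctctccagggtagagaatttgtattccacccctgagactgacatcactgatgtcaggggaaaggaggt
Celf5: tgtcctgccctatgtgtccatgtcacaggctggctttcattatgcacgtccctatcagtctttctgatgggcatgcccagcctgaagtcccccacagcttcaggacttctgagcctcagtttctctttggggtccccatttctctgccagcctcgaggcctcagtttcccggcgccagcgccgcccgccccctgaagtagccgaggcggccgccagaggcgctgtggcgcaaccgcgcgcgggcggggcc

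The E-box CAGCTG was present in 4 of the 9 member promoters that the RefSeq table held (Elavl3, Elavl4, Celf3 and Celf6), against 13.0% of 32851 promoters of the same length. These 4 were among 6 neuronal members with a sequence, and neither general member held it. CCAAT, on either strand, was in 6 of the 9, against 33.8% of all promoters. TATAAA was in Elavl3 and Celf3, against 12.4% of all promoters, and CAGATG was in Elavl4 alone, against 14.4%. All of these motifs were searched on both strands and do not overlap each other in the sequences printed. They were picked after the sequences had been seen, and a match of letters is a description of the window, not of binding. The general promoters were rich in G and C, at 67.6% for Elavl1 and 72.4% for Celf1, with an observed over expected CpG ratio of 1.12 and 0.734. All promoters had a median GC content of 52.4% and a median CpG ratio of 0.373. Celf3, at 52.8% GC and a CpG ratio of 0.235, and Elavl4, at 44.0% and 0.331, lay near those medians or below them, while Elavl3, at 61.6% and 0.845, and Celf5, at 64.4% and 0.667, lay above both.

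The zone labels were checked with cell markers. Of 16 progenitor markers, 15 were higher in the VZ than in the lMZ and 15 were higher in the mMZ than in the lMZ, a count that was 9 without lMZ replicate 2. Summed progenitor markers ran from 1197 to 2777 FPKM in the VZ, from 1136 to 1384 in the mMZ and from 116 to 161 in the lMZ, so the mMZ samples held much progenitor RNA. Of 18 neuron markers, 16 were lower in the VZ than in the lMZ, and the count fell to 4 without VZ replicate 1, lMZ replicate 1 or lMZ replicate 2 and to 6 without lMZ replicate 3. Their sum was 1344, 3010 and 998 FPKM in VZ replicates 1, 2 and 3, from 3031 to 3607 in the mMZ and from 4483 to 5112 in the lMZ. VZ replicate 2 thus stood apart from the other VZ libraries in both marker sums. In bulk tissue of this kind, fewer cells of a type and less RNA per cell cannot be told apart. The depth implied by the spacing of low values was 4420161 to 8817318 fragments in 7 libraries, but 261258 in VZ replicate 3 and 539556 in mMZ replicate 3. In these shallow libraries 27 and 15 genes were listed at 0 although each held at least 10 FPKM in the 8 other libraries, so a 0 there can be a failed estimate.

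The 10 members were present in all zones, and most were abundant. Celf3 had the highest level of the 10 in 8 of 9 libraries, with Celf5 just above it in lMZ replicate 2. Ranked by mean level among the tested genes, Celf3 stood at percentile 98.1, Celf5 at 96.7 and Elavl3 at 96.3, followed by Elavl4 at 92.8 and Celf4 at 92.7. Elavl2 and Celf1 stood at 89.7, Celf2 at 89.2, Celf6 at 76.9 and Elavl1 at 59.7. The general gene of the Elavl family was thus its least abundant member, while Celf1 lay close to Celf2.

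Between the VZ and the lMZ, 1 of the 10 members passed the test, Celf4, which was lower in the VZ. By the same test 19.6% of the 14004 tested genes passed in this comparison, 10.7% higher and 8.93% lower in the VZ, so 1 in 10 is no more than the background. At an unadjusted p under 0.05 there were 5 members (Elavl1, Elavl3, Celf4, Celf5 and Celf6) and 35.8% of all tested genes. The VZ and lMZ libraries did not overlap for 6 members, Elavl1 and Celf2 above and Elavl3, Celf4, Celf5 and Celf6 below in the VZ, and this held for 45.1% of all tested genes (25.2% above and 19.9% below in the VZ).

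The other comparisons gave no called member by limma. Between the VZ and the mMZ 0 members and 0 of all tested genes (0%) passed, and 1 member (Celf4) and 1661 genes had an unadjusted p under 0.05. The VZ and mMZ libraries did not overlap for Elavl3 and Elavl4, both below in the VZ, against 14.7% of all tested genes without overlap (5.36% above and 9.3% below). Between the mMZ and the lMZ 0 members passed, while 4.12% of all tested genes did (3.58% higher and 0.543% lower in the mMZ), and 1 member (Celf2) and 2887 genes had an unadjusted p under 0.05. The mMZ and lMZ libraries did not overlap for 5 members, Elavl1 and Celf2 above and Celf4, Celf5 and Celf6 below in the mMZ, against 40.4% of all tested genes (25.7% above and 14.8% below). The 3 comparisons share libraries, so they are not separate evidence.

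**Figure D1:**
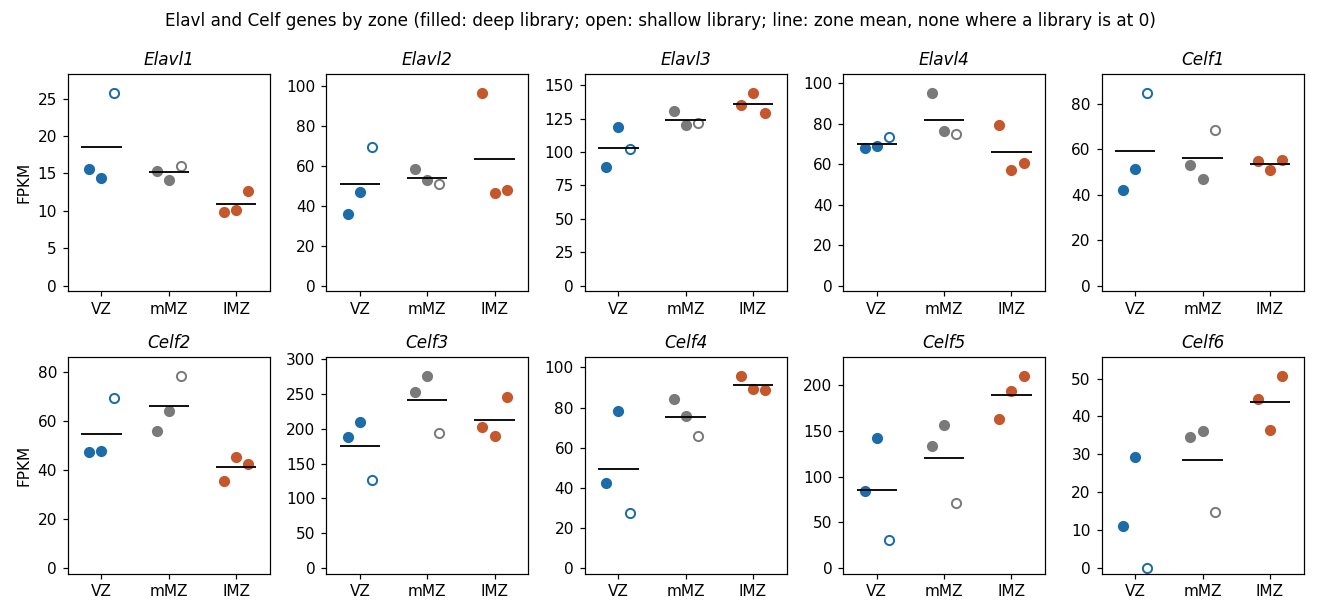
FPKM of each of the 10 genes (vertical axis, a scale for each gene) in the 3 libraries of the VZ, mMZ and lMZ, with filled points for deep and open points for shallow libraries and a line at the zone mean where no library is at 0. Celf4, Celf5 and Celf6 had all VZ libraries below all lMZ libraries, with VZ replicate 3 lowest in each.

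Elavl1 (GRCm38 chromosome 8, 4285382 to 4325413, minus strand) encodes the general family member that stabilises AU-rich messages. It was 15.6, 14.4 and 25.7 FPKM in the VZ, 15.3, 14.1 and 16.0 FPKM in the mMZ, and 9.86, 10.1 and 12.7 FPKM in the lMZ, in replicates 1, 2 and 3. All VZ and all mMZ libraries were above all lMZ libraries, and the shallow VZ replicate 3 was the highest of the 9. The mean was 18.6 ± 6.16 FPKM in the VZ, 15.1 ± 0.957 in the mMZ and 10.9 ± 1.58 in the lMZ (SD, n = 3 libraries each). In log2(FPKM + 1) the VZ minus lMZ difference was 0.68 ± 0.24 (SE; limma adjusted p = 0.0737), and the mMZ minus lMZ difference was 0.45 ± 0.24 (adjusted p = 0.327). Neither passed, and with both shallow libraries left out the VZ minus lMZ difference was 0.44 (adjusted p = 0.0741).

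Elavl2, on chromosome 4 from 91250763 to 91400785 on the minus strand, encodes HuB, an Elavl protein of early neurons. It was 36.1, 47.0 and 69.7 FPKM in the VZ, 58.7, 53.2 and 50.8 FPKM in the mMZ, and 96.5, 46.4 and 48.1 FPKM in the lMZ. The zones overlapped, and lMZ replicate 1 was about 2-fold the other lMZ libraries. The VZ minus lMZ difference was -0.28 ± 0.31 in log2(FPKM + 1) (limma adjusted p = 0.531), with a 95% interval from -0.97 to 0.40. Without lMZ replicate 1 it was 0.05, on the other side of 0.

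Elavl3, on chromosome 9 from 22015005 to 22052023 on the minus strand, encodes HuC, a widely used marker of postmitotic neurons. It was 88.9, 119 and 102 FPKM in the VZ, 131, 120 and 122 FPKM in the mMZ, and 135, 144 and 129 FPKM in the lMZ. Every VZ library was below every mMZ and every lMZ library, but by little. The mean was 103 ± 15.0 FPKM in the VZ, 125 ± 5.98 in the mMZ and 136 ± 7.60 in the lMZ, a VZ over lMZ ratio of means of 0.761. The VZ minus lMZ difference of -0.40 ± 0.14 in log2(FPKM + 1) did not pass (limma adjusted p = 0.0757). This estimate lay between -0.55 and -0.30 over 21 alternative settings and passed in 4 of them.

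Elavl4, on chromosome 4 from 110203722 to 110351909 on the minus strand, encodes HuD, which binds messages of axon growth. It was 67.7, 69.0 and 73.4 FPKM in the VZ, 94.9, 76.3 and 74.8 FPKM in the mMZ, and 79.3, 57.2 and 60.7 FPKM in the lMZ. The mMZ libraries were all above the VZ libraries, and the lMZ libraries lay on both sides of the VZ. The VZ minus mMZ difference was -0.22 ± 0.17 in log2(FPKM + 1) (limma adjusted p = 0.592), and the VZ minus lMZ difference had a 95% interval from -0.27 to 0.47. That interval excludes a change of 1 on the log2 scale in either direction, which 23.3% of all tested genes exceeded between these zones.

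Celf1, on chromosome 2 from 90940382 to 91019497 on the plus strand, encodes the general family member, a splicing and mRNA decay factor. It was 42.2, 51.2 and 84.6 FPKM in the VZ, 53.2, 46.8 and 68.6 FPKM in the mMZ, and 54.8, 51.0 and 55.2 FPKM in the lMZ. The zones overlapped, and the shallow library was the highest in both the VZ and the mMZ. In log2(FPKM + 1) the VZ minus lMZ difference was 0.08 ± 0.25 (limma adjusted p = 0.838, 95% interval from -0.48 to 0.64). Without both shallow libraries it was -0.20, with means of 46.7 FPKM in the VZ, 50.0 in the mMZ and 53.6 in the lMZ.

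Celf2, on chromosome 2 from 6539694 to 7509563 on the minus strand, encodes a splicing and decay factor found widely and in neurons. It was 47.3, 47.7 and 69.7 FPKM in the VZ, 56.1, 64.1 and 78.6 FPKM in the mMZ, and 35.6, 45.6 and 42.6 FPKM in the lMZ. All VZ and all mMZ libraries were above all lMZ libraries, the reverse of Celf4 to Celf6. The mean was 54.9 ± 12.8 FPKM in the VZ, 66.2 ± 11.4 in the mMZ and 41.3 ± 5.17 in the lMZ. The mMZ minus lMZ difference of 0.66 ± 0.20 in log2(FPKM + 1) did not pass (limma adjusted p = 0.107), nor did the VZ minus lMZ difference of 0.39 ± 0.20 (adjusted p = 0.201). Without both shallow libraries the mMZ minus lMZ difference was 0.53 and passed (adjusted p = 0.0466). There 12% of all tested genes passed, against 4.12% in the main analysis. Over 21 alternative settings this difference passed in 4.

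Celf3, on chromosome 3 from 94478295 to 94492198 on the plus strand, encodes a splicing regulator of the nervous system. It was 188, 210 and 127 FPKM in the VZ, 253, 276 and 194 FPKM in the mMZ, and 203, 189 and 246 FPKM in the lMZ. The lowest value of each of the VZ and mMZ came from its shallow library, and the lMZ overlapped both. The mean was 175 ± 43.4 FPKM in the VZ, 241 ± 42.6 in the mMZ and 213 ± 29.5 in the lMZ, and no difference passed (limma adjusted p = 0.425 for VZ minus mMZ, 0.343 for VZ minus lMZ and 0.709 for mMZ minus lMZ).

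Celf4, on chromosome 18 from 25477632 to 25754157 on the minus strand, encodes a protein that in mice binds many messages of synaptic genes. It was 42.2, 78.2 and 27.6 FPKM in the VZ, 84.3, 75.8 and 65.8 FPKM in the mMZ, and 95.8, 89.2 and 88.6 FPKM in the lMZ. Every VZ and every mMZ library was below every lMZ library, and VZ replicate 2 lay within the mMZ range. The mean was 49.3 ± 26.1 FPKM in the VZ, 75.3 ± 9.26 in the mMZ and 91.2 ± 4.04 in the lMZ, a VZ over lMZ ratio of 0.541. The VZ minus lMZ difference of -0.9998 ± 0.31 in log2(FPKM + 1) passed (limma adjusted p = 0.0478, lower in 3 of 3 libraries). It was close to the threshold: without any single library other than VZ replicate 2 the adjusted p was 0.0574 to 0.136, without VZ replicate 2 it was 0.00167, and without both shallow libraries the difference was -0.65 (adjusted p = 0.0647). The VZ minus mMZ difference was -0.72 ± 0.31 (adjusted p = 0.409) and the mMZ minus lMZ difference was -0.28 ± 0.31 (adjusted p = 0.656).

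Celf5, on chromosome 10 from 81459227 to 81482709 on the minus strand, encodes another Celf protein of the nervous system. It was 83.7, 142 and 30.6 FPKM in the VZ, 133, 156 and 71.6 FPKM in the mMZ, and 163, 193 and 210 FPKM in the lMZ. Each VZ and each mMZ library was below each lMZ library, and the shallow library was the lowest of its zone. The mean was 85.6 ± 55.9 FPKM in the VZ, 120 ± 43.7 in the mMZ and 189 ± 23.9 in the lMZ. The difference between the VZ and the lMZ was -1.38 ± 0.48 in log2(FPKM + 1) and did not pass (limma adjusted p = 0.0735). Without both shallow libraries it was -0.78 and passed (adjusted p = 0.0355). There 28.3% of all tested genes passed, against 19.6% in the main analysis. Over 21 alternative settings this difference passed in 4. Without VZ replicate 3 alone the VZ mean was 113 FPKM.

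Celf6, on chromosome 9 from 59577917 to 59607292 on the plus strand, encodes the remaining Celf splicing factor and was the least abundant of its family. It was 11.1, 29.2 and 0 FPKM in the VZ, 34.6, 36.2 and 14.9 FPKM in the mMZ, and 44.7, 36.4 and 50.7 FPKM in the lMZ. The 0 stood in the shallow VZ replicate 3. If the spacing of low values is 1 fragment, 1 fragment on this gene was worth about 1.29 FPKM there. The levels of VZ replicates 1 and 2 would then have given about 8.63 and 22.7 fragments. Such a 0 can be a failed estimate, and no VZ mean is given. The VZ minus lMZ difference with the 0 kept was -2.64 ± 0.996 in log2(FPKM + 1) and did not pass (limma adjusted p = 0.0905). Without both shallow libraries it was -1.22 and passed (adjusted p = 0.0321), at means of 20.2 FPKM in the VZ, 35.4 in the mMZ and 43.9 in the lMZ. There 28.3% of all tested genes passed, against 19.6% in the main analysis. Over 21 alternative settings this difference passed in 3.

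Celf3, Celf4, Celf5 and Celf6 kept 1 order within the VZ, highest in replicate 2, then replicate 1, then replicate 3. The summed neuron markers kept the same order, at 3010, 1344 and 998 FPKM, and summed progenitor markers kept the opposite one, at 1197, 2069 and 2777 FPKM. Elavl3 was also highest in VZ replicate 2, but Elavl2 and Elavl4 were highest in replicate 3. The part of the marker content of the dissected samples in the zone differences was not tested.

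**Figure D2:**
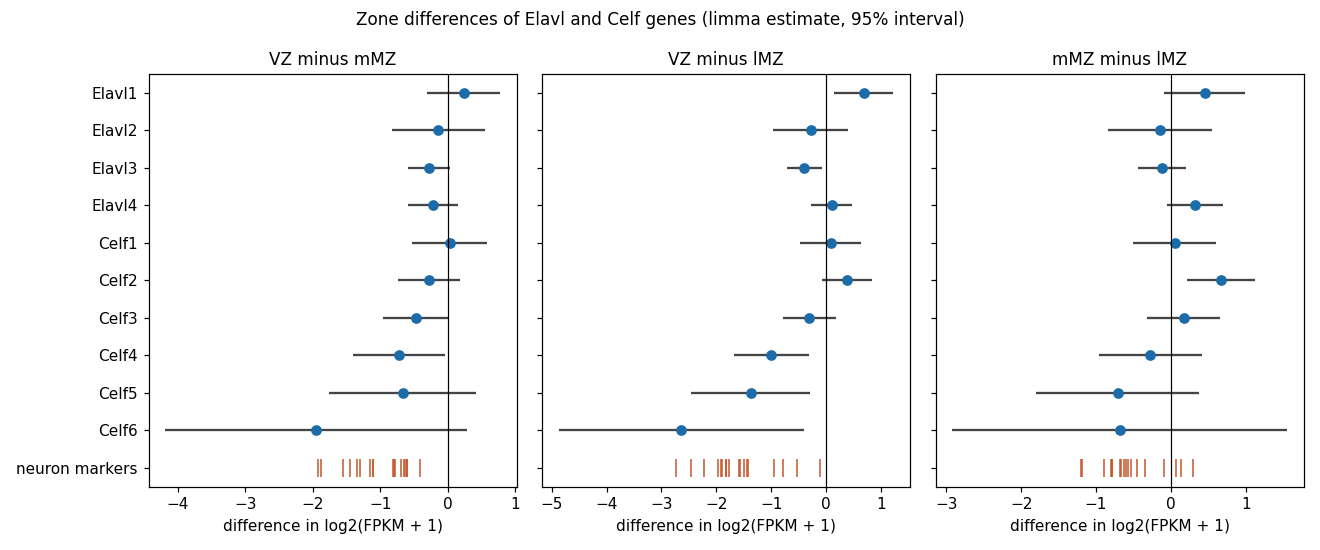
Difference in log2(FPKM + 1) for VZ minus mMZ, VZ minus lMZ and mMZ minus lMZ (panels), with a point for the limma estimate of each gene, a bar for its 95% interval, and ticks for the 18 neuron markers. Most neuron markers lay left of Elavl1 to Celf3 in VZ minus lMZ. Elavl2, Elavl3 and Celf3 to Celf6 fell in the range of those markers, with Celf4 to Celf6 furthest left.

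Set beside general neuron markers, most Elavl and Celf genes differed little between zones. Between the VZ and the lMZ the 10 members spanned -2.64 to 0.68 in log2(FPKM + 1), with a median of -0.29, and the 18 neuron markers spanned -2.74 to -0.11, with a median of -1.68. A size of 1 was exceeded by 2 of the 10 members, Celf5 and Celf6, by 14 of the 18 neuron markers and by 23.3% of all tested genes. The median of the 7 neuronal members was -0.40, that of Elavl1 and Celf1 was 0.38, and that of all tested genes was 0.05. The value of the general pair is the midpoint of 2 unlike genes, Elavl1 at 0.68 and Celf1 at 0.08. Celf1 changed sign without both shallow libraries. The median absolute difference was 0.39 for the 10 members and 0.52 for all tested genes. In VZ minus mMZ the medians were -0.47 for the neuronal members, 0.13 for the general pair and -0.05 for all tested genes. In mMZ minus lMZ they were -0.15, 0.25 and 0.10. Elavl1 and Celf1 stood at 0.24 and 0.03 in VZ minus mMZ and at 0.45 and 0.05 in mMZ minus lMZ.

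Ratios within a library do not depend on how the library was scaled, and they set neuronal against general members directly. Summed Elavl2, Elavl3 and Elavl4 over Elavl1 was 12.3, 16.3 and 9.57 in the VZ, 18.7, 17.7 and 15.5 in the mMZ, and 31.5, 24.5 and 18.7 in the lMZ. All VZ ratios were below all lMZ ratios, with means of 12.7 ± 3.37 in the VZ, 17.3 ± 1.63 in the mMZ and 24.9 ± 6.43 in the lMZ. Most of this range lay in the denominator, as Elavl1 averaged 18.6 FPKM in the VZ and 10.9 in the lMZ. The shallow VZ replicate 3 gave the lowest ratio, 9.57, and the highest Elavl1 value, 25.7 FPKM. Without the shallow libraries Elavl1 averaged 15.0 FPKM in the VZ. The VZ over lMZ ratio of means was 1.71 for Elavl1, 0.80 for Elavl2, 0.761 for Elavl3 and 1.06 for Elavl4. The highest ratio, 31.5, came from lMZ replicate 1, where Elavl2 stood at 96.5 FPKM. The ratios were not tested. The sum of the Elavl family was close in the 3 zones, at 243 ± 31.9, 276 ± 21.0 and 276 ± 38.8 FPKM in the VZ, mMZ and lMZ.

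Summed Celf3 to Celf6 over Celf1 was 7.72, 8.99 and 2.18 in the VZ, 9.49, 11.6 and 5.05 in the mMZ, and 9.26, 9.97 and 10.8 in the lMZ. All VZ ratios were below all lMZ ratios, by little for VZ replicate 2 (8.99 against a lowest lMZ ratio of 9.26). The mMZ ratios ran from below to above the lMZ values. The shallow libraries gave the lowest ratio of the VZ and of the mMZ. These ratios were not tested either. The Celf family sum was 438 ± 112 FPKM in the VZ, with the Celf6 0 kept, 588 ± 84.3 in the mMZ and 632 ± 53.4 in the lMZ. The shallow libraries held the lowest sums, 339 FPKM in the VZ and 493 in the mMZ. The deep ones held 415 and 559 FPKM in the VZ and 614 and 655 in the mMZ, beside 597 to 693 in the lMZ.

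**Figure D3:**
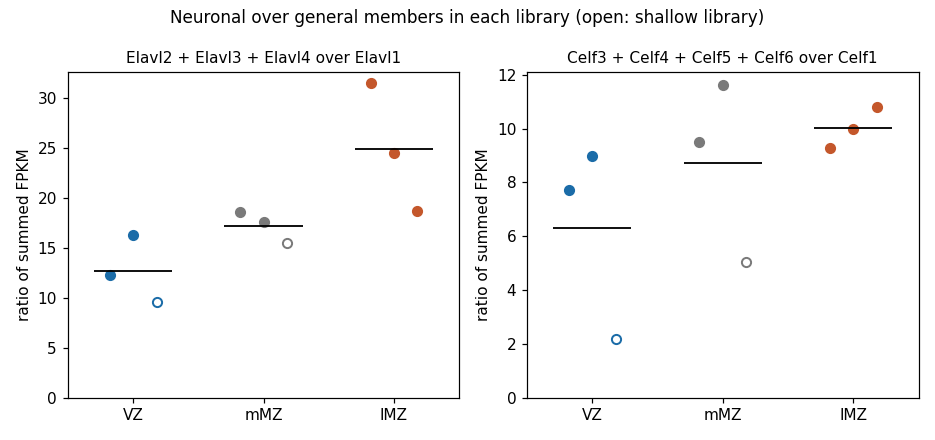
Ratio of summed FPKM of the neuronal to the general member of the Elavl family (left) and of the Celf family (right) in each library of the VZ, mMZ and lMZ, with lines at zone means and open points for shallow libraries. The Elavl ratio lay at 9.57 to 16.3 in the VZ, lowest in the shallow library, and at 18.7 to 31.5 in the lMZ. The lowest Celf ratios, 2.18 and 5.05, came from the shallow libraries, the VZ one with Celf6 at 0.

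Shares within each family are given as zone means. Elavl3 held 42.7% of the summed Elavl FPKM in the VZ, 45.2% in the mMZ and 49.8% in the lMZ, and Elavl1 held 7.59%, 5.51% and 4.02% in the same order. Elavl4 held 29.1% in the VZ, 29.6% in the mMZ and 23.7% in the lMZ, and Elavl2 held 20.6%, 19.7% and 22.4%. Celf3 was the first of the Celf family in each zone, with 40.1% in the VZ, 40.8% in the mMZ and 33.6% in the lMZ. Celf5 held 18.2%, 20.02% and 29.9% in the same order, and Celf2 held 13.5%, 11.6% and 6.55%. The shallow libraries moved these VZ and mMZ means. Celf2 held 20.6% in VZ replicate 3 and 15.9% in mMZ replicate 3, against 8.53% to 11.4% in the deep libraries of those zones. Celf5 held 9.03% and 14.5% in the same shallow libraries, against 20.2% to 25.5% in the deep ones. The VZ shares count the Celf6 0. The Celf5 over Celf2 ratio was 1.77, 2.99 and 0.439 in the VZ, 2.38, 2.44 and 0.910 in the mMZ, and 4.59, 4.24 and 4.93 in the lMZ, with all lMZ libraries above all others. These shares describe the libraries and were not tested, and single-library shares overlapped between the VZ and the lMZ for Elavl3 and Elavl2.

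The members differed in how the shallow libraries read them. Against the mean of VZ replicates 1 and 2, the shallow VZ replicate 3 was lower by 4.26 in log2(FPKM + 1) for Celf6, by 1.80 for Celf5, by 1.03 for Celf4 and by 0.65 for Celf3. It was higher by 0.85 for Celf1, 0.75 for Elavl2, 0.73 for Elavl1 and 0.54 for Celf2, and differed by -0.0051 for Elavl3 and 0.10 for Elavl4. In mMZ replicate 3 the same 4 genes were the lowest, at -1.19 for Celf6, -1.001 for Celf5, -0.45 for Celf3 and -0.28 for Celf4. The GC content of the longest GENCODE transcript was 57.7% for Celf3, 57.5% for Celf6, 55.3% for Celf5, 54.1% for Elavl3 and 49.3% for Celf4. It was 46.6% for Celf1, 45.7% for Elavl1, 42.1% for Celf2, 38.9% for Elavl4 and 38.5% for Elavl2. Across the 10 members, which share these libraries, Pearson's r between GC content and the deviation was -0.688 in VZ replicate 3 and -0.63 in mMZ replicate 3. Across 12939 tested genes, which are not independent replicates, it was -0.199 and -0.285. Between deep libraries the members also gave r of 0.567 (VZ replicate 2 minus replicate 1) and -0.545 (lMZ replicate 1 minus the mean of replicates 2 and 3). The part of GC content and depth in the low values of Celf4 to Celf6 was not tested. With values centred within 20 bins of GC content, a setting added after seeing the data, the VZ minus lMZ difference was -1.11 for Celf4 (limma adjusted p = 0.0378), -1.41 for Celf5 (0.0587) and -2.62 for Celf6 (0.0765).

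**Figure D4:**
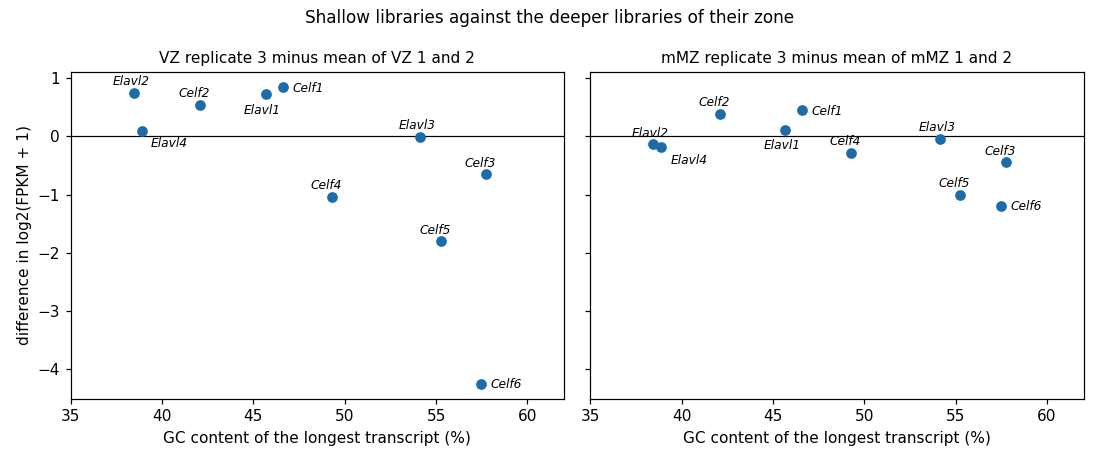
Deviation of the shallow library from the mean of the deeper libraries of its zone in log2(FPKM + 1) (vertical axis) against transcript GC content in percent (horizontal axis), for the 10 genes in the VZ (left) and the mMZ (right). Celf6 and Celf5 lay lowest in both, at -4.26 and -1.80 in the VZ and -1.19 and -1.001 in the mMZ.

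The genes with the most similar profile were looked up for each member among 9753 genes. The profile of Celf4 over the 9 libraries was closest to Fam20c (Pearson's r = 0.997) and to the neuronal microtubule regulator Stmn3 (0.995). For Celf5 they were Lmtk3 (0.992) and Fsd1 (0.99), and for Celf6 Flywch2 and Lysmd4 (both 0.992). Stmn3 averaged 166 FPKM in the VZ, 330 in the mMZ and 501 in the lMZ, a wider range than Celf4. Elavl3 was closest to Actr1a (0.986), a dynactin subunit, and Eid1 (0.982), and Elavl1 to Skiv2l2 (0.994), an RNA helicase of the nuclear exosome, and Eif3a (0.986), a translation initiation factor. Eif3a averaged 59.0 FPKM in the VZ, 50.1 in the mMZ and 39.7 in the lMZ. For Celf1 they were Dnaja2 (0.976) and Rab35 (0.974), for Celf2 Ostm1 (0.961) and Smndc1 (0.947), and for Celf3 Camk2a and Ahdc1 (both 0.961). Elavl2 reached 0.919 with Lmbrd1 and 0.911 with Bri3bp, and Elavl4 reached 0.889 with Nudt16l1 and 0.886 with Plin2. The libraries fall into 3 zones and share their depth, and each r is the highest of many, so these values only describe likeness. Over the 7 deep libraries the 20 r ran from 0.841 (Celf1 and Dnaja2) to 0.993 (Celf4 and Fam20c), with 0.888 and 0.878 for the neighbours of Celf3.

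Of 11 AU-rich element binding and decay proteins, 3 were higher in the VZ than in the lMZ and 0 lower, with a list median of 0.43, beside 10.7% higher and 8.93% lower among all tested genes in this comparison. Zfp36l1, which destabilises AU-rich messages, was 34.3, 27.6 and 38.3 FPKM in the VZ, 18.2, 17.5 and 15.7 FPKM in the mMZ, and 2.70, 1.74 and 3.09 FPKM in the lMZ. Its libraries did not overlap between any zones, and the VZ minus lMZ difference was 3.30 ± 0.23 in log2(FPKM + 1) (limma adjusted p = 0.000171) and the mMZ minus lMZ difference 2.39 ± 0.23 (adjusted p = 0.00143). Its relative Zfp36l2 was 16.1 ± 10.4 FPKM in the VZ and 2.93 ± 0.346 in the lMZ, a difference of 1.95 ± 0.39 (adjusted p = 0.0104). Khsrp, a decay factor, was 68.3 ± 11.3 FPKM in the VZ and 39.3 ± 5.29 in the lMZ (adjusted p = 0.0145, and 0.0683 without lMZ replicate 1). Hnrnpd and Tia1 did not pass, with Hnrnpd at 242 ± 79.5 against 170 ± 5.82 FPKM and Tia1 at 176 ± 25.8 against 136 ± 10.7 FPKM in the VZ against the lMZ.

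Of 15 neural splicing regulators, 2 were higher and 2 lower in the VZ than in the lMZ, with a list median of 0.05 (all tested genes: 10.7% higher, 8.93% lower, median 0.05). Ptbp1, a repressor of neuronal exons, was 113 ± 36.9 FPKM in the VZ, 68.8 ± 5.16 in the mMZ and 23.9 ± 4.48 in the lMZ (VZ minus lMZ 2.15 ± 0.24, limma adjusted p = 0.000851). Srrm4, which promotes neuronal microexons, was 28.0 ± 4.48 FPKM in the VZ and 12.2 ± 1.31 in the lMZ (adjusted p = 0.00473). Rbfox1, a neuronal splicing factor, was 2.09, 7.83 and 0 FPKM in the VZ and 27.0, 32.5 and 26.0 FPKM in the lMZ, and its relative Rbfox2 was 59.5 ± 15.9 FPKM in the VZ and 102 ± 9.75 in the lMZ. Rbfox1 was lost without lMZ replicate 1 or 2 and Rbfox2 without VZ replicate 1 or lMZ replicate 1 or 2, with adjusted p up to 0.0572 and 0.0808. Between the mMZ and the lMZ, Ptbp1 was higher and Rbfox3 lower in the mMZ (adjusted p = 0.00929 and 0.0354). Of all tested genes 3.58% were higher and 0.543% lower in that comparison. Without any single library other than VZ replicates 2 and 3 the count of 2 came down to 1, with Rbfox3 lost. It was 5 without VZ replicate 3, where 12.7% of all tested genes passed. Without both shallow libraries 4 were higher and 2 lower in the mMZ, where 12% of all tested genes passed. The VZ minus lMZ count of 4 was 2 without lMZ replicate 1 or 2.

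Of 17 tested RNA transport and translation regulators, 6 were higher in the VZ than in the lMZ and 0 lower, with a list median of 0.49, where 10.7% of all tested genes were higher. Msi1, an RNA-binding protein of neural progenitors, was 292 ± 64.6 FPKM in the VZ, 202 ± 17.6 in the mMZ and 88.0 ± 3.25 in the lMZ (VZ minus lMZ 1.69 ± 0.17, limma adjusted p = 0.000691). The Igf2bp proteins, which bind and protect messages in embryonic cells, were all higher in the VZ. Igf2bp1 was 26.9 ± 8.86 FPKM in the VZ and 4.29 ± 2.24 in the lMZ, Igf2bp2 was 32.7 ± 4.72 against 13.2 ± 3.27 FPKM, and Igf2bp3 was 25.3 ± 10.02 against 6.13 ± 0.692 FPKM. Fxr2 and Syncrip did not pass, with Fxr2 at 70.5 ± 4.60 against 64.3 ± 8.65 FPKM. The count of 6 was 4 without VZ replicate 1 or any single lMZ library and 8 without both shallow libraries, of which 2 were then lower. Without both shallow libraries 28.3% of all tested genes passed. Msi1 and the Igf2bp genes, 4 in all, were also higher in the mMZ than in the lMZ, where 3.58% of all tested genes were higher. This count of 4 was 2 without mMZ replicate 2 or 3 or lMZ replicate 1 or 2.

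Of 11 tested mRNAs reported elsewhere as Elavl targets, 3 were lower and 1 higher in the VZ than in the lMZ, with a list median of -1.15, where 8.93% of all tested genes were lower and 10.7% higher. Ache, encoding acetylcholinesterase, was 2.93, 8.16 and 0 FPKM in the VZ and 39.8, 31.3 and 27.8 FPKM in the lMZ. The axonal microtubule protein Mapt was 74.3 ± 81.5 FPKM in the VZ and 322 ± 36.0 in the lMZ, and Gap43, a growth cone protein, was 124 ± 111 against 367 ± 47.3 FPKM. Both of these also stand in the neuron marker list, and neither passed without VZ replicate 1 or any single lMZ library, nor Gap43 without VZ replicate 3 (adjusted p up to 0.0731 for Mapt and 0.0886 for Gap43). The chromatin protein Satb1 was 29.6 ± 7.20 FPKM in the VZ and 8.56 ± 1.78 in the lMZ (limma adjusted p = 0.00215). Ank3, encoding an ankyrin of the axon initial segment, did not pass, at 63.8 ± 31.6 against 104 ± 14.9 FPKM. The count of 4 was 2 without VZ replicate 1 or any single lMZ library, and 6 without VZ replicate 2, where 28.6% of all tested genes passed. Between the VZ and the mMZ no gene of these 4 lists passed. Between the mMZ and the lMZ 3.58% of all tested genes were higher. There the counts were 1 higher for AU-rich element proteins and 1 higher for targets (Satb1). Without VZ replicate 3 these counts were 3 and 2 (12.7% of all tested genes passed), and without both shallow libraries 2 and 2 (12%). The target count was 2 without VZ replicate 2 (6.44%). It was 0 without mMZ replicate 2 (1.61%), with Satb1 at a limma adjusted p = 0.0514.

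Markers of other cell types were read as lists. Summed erythroid markers ran from 1893 to 2046 FPKM in the VZ, from 1344 to 2452 in the mMZ and from 224 to 541 in the lMZ, with 5 of 6 tested markers higher in the VZ than in the lMZ. Summed microglia markers ran from 12.2 to 23.1, from 13.0 to 27.4 and from 35.8 to 48.5 FPKM in the VZ, mMZ and lMZ, with 2 of 7 lower in the VZ than in the lMZ, a count that was 1 without mMZ replicate 1 and 0 without VZ replicate 1 or any single lMZ library. Of 8 endothelium and 5 meninges and pericyte markers none passed in any comparison, but 1 meninges and pericyte marker passed in VZ minus lMZ without mMZ replicate 3 or without both shallow libraries, and 1 endothelium marker without VZ replicate 2. Endothelium summed to 5.99 to 50.8 FPKM in the VZ, 20.5 to 63.9 in the mMZ and 15.6 to 48.2 in the lMZ, and meninges and pericytes to 8.59 to 15.8, 8.83 to 19.2 and 4.46 to 12.3. The fibroblast marker Lum was at 0 in all mMZ and lMZ libraries. The part of these cells in the zone differences of the Elavl and Celf genes was not tested.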

How the data were processed

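RNA was measured in 9 libraries, 3 each from the VZ, mMZ and lMZ. Per the labels' protocols, total RNA was made into mRNA libraries and read as 100 bp pairs. Per the submitters' processing notes, Bowtie2 2.1.0 and the mm10 build were used. For the program that made the FPKM the sources used here give no name. The authors deposited FPKM per gene and library, with no counts. From 38370 rows, 42 identical rows and 133 further repeated symbols were removed, which left 38195 symbols. Depth was read from the spacing of low FPKM values, of which 65.4% to 72.4% lay near a whole step, and gives relative depth only.

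FPKM are not counts, so limma 3.58.1 in R 4.3.3 was fitted to log2(FPKM + 1), with 1 mean per zone and an intensity trend over all 9 libraries. This scale understates the change of low genes. Two-sided p-values were adjusted over 14004 genes within each comparison (Benjamini-Hochberg, threshold 0.05), and 24191 genes below the filter were not tested. The fit was tested on simulated data in which all libraries had the same spread for a gene, so shallow libraries were not covered. Lists are described by counts and medians, with no set test. Intervals cover the spread between libraries.

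The members and lists were chosen with earlier results of these data known. Named are the 10 members, up to 4 list genes that passed, by size of VZ minus lMZ difference, the 2 most abundant that did not, and for each member the 2 genes with the highest Pearson's r in log2(FPKM + 1) among genes of at least 5 FPKM in their highest zone, skipping predicted genes. Promoters are from RefSeq on GRCm38.p6 and gene spans from GENCODE release M21 on GRCm38. Epb42 and a promoter of Celf4 were not analysed here. The values of 1 list gene are not reported here. Alternatives covered the pseudocount, filter, scaling, trend, library weights, the zones fitted, leaving out libraries and a replicate block.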

Additional observations from a re-analysis of the deposited data

How the results depend on the processing

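Of 630 values of single members under 21 alternatives, 568 kept their direction and their side of the threshold, 25 newly passed, 16 no longer passed and 21 changed sign. The count of members called between the VZ and the lMZ, 1 in the main analysis, was 0 with a pseudocount of 0.1 or 0.5, with no filter, with quantile normalization, without the trend or with only the compared zones. In those settings 9.12% to 21.7% of all tested genes passed. The count was 6 with array weights, whose estimation stopped short of convergence, and 48.6% of all tested genes passed there. It was 2 with both shallow libraries left out (28.3% of all tested genes) or with centring within GC bins (22.5%). The GC setting was added after seeing the data. With trimmed mean scaling the count stayed at 1, but the member was Elavl3 (adjusted p = 0.0418) and not Celf4 (0.0547). Leaving out single libraries gave 0 to 5 (6.82% to 28.6% of all tested genes), with 5 and 28.6% without VZ replicate 2. Between the VZ and the mMZ the count of 0 was 5 with array weights (19.7% of all tested genes). It was 0 to 1 without single libraries (0% to 4.09%). Between the mMZ and the lMZ the count of 0 was 2 with array weights (26.4% of all tested genes). It was 1 with only the compared zones (15.4%) or without both shallow libraries (12%), and 0 to 1 without single libraries (1.47% to 12.7%). The cause of these shifts was not tested.

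The numbers 1 to 3 are shared between zones, but the labels do not say that they pair libraries. Deviations of same-numbered libraries correlated by -0.0984 to 0.249, and those of differently numbered libraries by -0.247 to 0.231. Between the mMZ and the lMZ all same-numbered values (0.017, 0.224 and 0.113) were above all others (highest 0.0131). Between the VZ and either mantle zone the same-numbered and other values overlapped. Pairing by number was not tested. With a replicate block the VZ minus lMZ count was 2, Celf4 and Celf5, where 20.7% of all tested genes passed. The counts of the other comparisons stayed at 0.

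The values that changed sign were small and not called. Celf1 in VZ minus mMZ was -0.20 with array weights, -0.10 without both shallow libraries and -0.25 to 0.24 without single libraries. In VZ minus lMZ it was -0.026 with trimmed mean scaling, -0.29 with array weights, -0.20 without both shallow libraries, -0.061 within GC bins and -0.20 to 0.29 without single libraries. In mMZ minus lMZ it was -0.055 with trimmed mean scaling, -0.021 with quantile normalization, -0.094 with array weights, -0.10 without both shallow libraries, -0.15 within GC bins and -0.10 to 0.17 without single libraries. Elavl4 in VZ minus lMZ was -0.0034 with trimmed mean scaling and -0.092 within GC bins. Without single libraries, Elavl2 ran from -0.39 to 0.080 in VZ minus mMZ, from -0.53 to 0.055 in VZ minus lMZ and from -0.33 to 0.19 in mMZ minus lMZ, and Elavl1 from -0.0084 to 0.39 in VZ minus mMZ.

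With Celf2 counted as neuronal, the neuronal over general ratio averaged 8.55 in the VZ, 11.5 in the mMZ and 13.1 in the lMZ, against 7.82, 10.5 and 12.4 without it. Quantile normalization moved the median of all tested genes in mMZ minus lMZ from 0.10 to -0.01. In VZ minus lMZ, 2750 tested genes passed in the main analysis, 1979 with no filter, 1762 with only the compared zones, 6800 with array weights and 940 to 3960 without single libraries.

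Depth limits the shallow libraries most: nonzero members held 28.8 to 174 implied fragments in VZ replicate 3 and 24.0 to 376 in mMZ replicate 3, against 191 to 5900 in the other libraries. With 3 libraries a zone, the 95% interval of a member's VZ minus lMZ difference was widest for Celf6, from -4.87 to -0.41.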
